A study of Homo sapiens with 6 samples.

Results

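Polycomb repressive complex 2 (PRC2) was examined here through the mRNAs of its subunits, chosen by gene symbol as 6 genes of the core (EZH2, EZH1, EED, SUZ12, RBBP4 and RBBP7) and 4 accessory subunits (JARID2, MTF2, PHF19 and AEBP2). All 10 genes were found among the 30015 genes of the table, and all 10 passed the minimum of 10 normalized counts that left 15251 genes for testing. The RNA came from HMV-II, an established line of human melanoma of the vagina, a mucosal site. There were 3 libraries of cells with the control (Vector, genotype given as WT, a lentiviral scrambled shRNA by the study's methods) and 3 of cells with EZH2 knockdown (shEZH2, a lentiviral shRNA that the table heads as sh1), with no further treatment. Both kinds of cells were puromycin-selected stable lines. With 1 knockdown group, off-target effects of the shRNA and effects of EZH2 loss cannot be told apart. The labels do not say whether the 3 libraries of a group came from separate cultures, so the p-values measure the spread between these libraries, which may be technical.

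PRC2 places methyl groups on lysine 27 of histone H3, a mark of silenced developmental genes. EZH2 and EZH1 are alternative catalytic subunits of which EZH2 is the more active and the one typical of dividing cells. EED binds the finished mark and stimulates the enzyme, SUZ12 is the scaffold on which the complex is built, and RBBP4 and RBBP7 are closely related histone-binding proteins that also serve in other complexes. Accessory subunits sort PRC2 into 2 forms. The form PRC2.1 carries one of the Polycomb-like proteins PHF1, MTF2 or PHF19, which guide it to CpG-rich DNA, and the form PRC2.2 carries JARID2 and AEBP2. In melanoma EZH2 is often raised and is a drug target.

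Depth was 13400290 to 15923029 reads in Vector and 16129171 to 19128939 in shEZH2 libraries. Vector replicate 2 stood apart. Over the genes tested, its median absolute log2 difference from Vector replicates 1 and 3 was 0.485 and 0.481, against 0.104 between those 2 libraries and 0.148 to 0.259 among the shEZH2 libraries. Its value lay over 1.5-fold from the mean of the other Vector libraries in 41.1% of genes tested, and in 2 of the 10 subunits, EED and JARID2. All 8 melanocyte markers were present, PMEL at 60992 normalized counts on average in the Vector group and SOX10 at 17491. Past the study's threshold in limma, 2 of the 8 were higher and 1 lower, against 7.55% and 7.07% of all genes tested. TYRP1 (275 and 887 on average in Vector and shEZH2 libraries) and MLANA (429 and 714) were higher, and TYR (6343 and 3148) was lower. Without Vector replicate 2 the log2 fold change of MLANA went from 0.88 to 0.39. Endothelial markers summed to 21.0 to 67.5 normalized counts in all libraries and leukocyte markers to 5.09 to 21.0, whereas fibroblast markers summed to 176 to 245 in Vector and 250 to 311 in shEZH2 libraries, of which LUM was higher past the study's threshold (148 and 247 on average) and COL1A2 lower (65.5 and 36.9), with COL3A1, DCN and PDGFRA at 0 in 3 libraries each. Of the 6 epithelial markers, KRT8, KRT18 and CDH1 were present, with a sum of 1309 to 1722 over the list. EPCAM (means of 1.36 in Vector and 1.59 in shEZH2 libraries, with 0 in 3 libraries) and KRT14 (3.17 and 6.95) were below the minimum for testing. KRT5 was not among the genes analysed. The part of these markers in the results was not tested.

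EZH2, the gene aimed at, was lower in every knockdown library. EZH2 (ENSG00000106462, minus strand of chr7:148807383-148884321, GRCh38) had 483, 437 and 552 normalized counts (reads divided by the size factor of the library) over Vector replicates 1 to 3, beside 237, 247 and 225 over shEZH2 replicates 1 to 3. The groups were far from overlapping, and the shEZH2 libraries were close together, with an SD of 10.7 against 58.0 in Vector cells (n = 3 each). The mean in shEZH2 cells was 48.2% of that in Vector cells. This gave a log2 fold change of -1.04 (SE, the standard error, 0.14; adjusted p = 0.0142 by limma), and the exact two-sided permutation test gave p = 0.1, the smallest that 3 libraries against 3 allow. Of the 15251 genes, 2.28% fell further. In bulk RNA, a moderate loss of EZH2 mRNA in all cells and a complete loss in part of them cannot be told apart. The adjusted p was 8.25e-05 without Vector replicate 2, was over 0.05 with any other single library left out, the highest being 0.128, and ran down to 5.94e-08 over all alternatives.

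EZH2, the target of the shRNA, was the only one of the 10 subunits to pass the study's threshold (a change over 1.5-fold and p under 0.05 without adjustment). Its fall was set by the design, and it is included in the counts and the median that follow. Downward, that was 1 of 10 where 7.07% of all genes tested passed, and upward it was 0 of 10 where 7.55% did. At an unadjusted p under 0.05 in limma, DESeq2 or edgeR, 2 subunits were lower (EZH2 and RBBP4), against 11.3% of all genes in limma. No subunit was higher at that p, and the share of all genes that was higher was not counted. The median log2 fold change of the 10 subunits was -0.19, beside 0.04 over all genes tested. Vector and shEZH2 libraries were fully separate for 4 of 10 subunits (EZH2, EZH1, RBBP4 and RBBP7), against 34.8% of all genes. Of these, 3 were lower and 1 higher, where 16.5% and 18.4% of all genes were. After adjustment over all genes 1 of the 10 was under 0.05, against 4.12% of all genes. Without Vector replicate 2 the count was again 1 lower and 0 higher (5.64% and 7.05% of all genes), 2 were lower at an unadjusted p under 0.05 (15.6%), and 2 passed after adjustment (18.9%). The counts at the study's threshold were 1 lower and 0 higher under each of the 17 alternatives that were run.

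**Figure D1:**
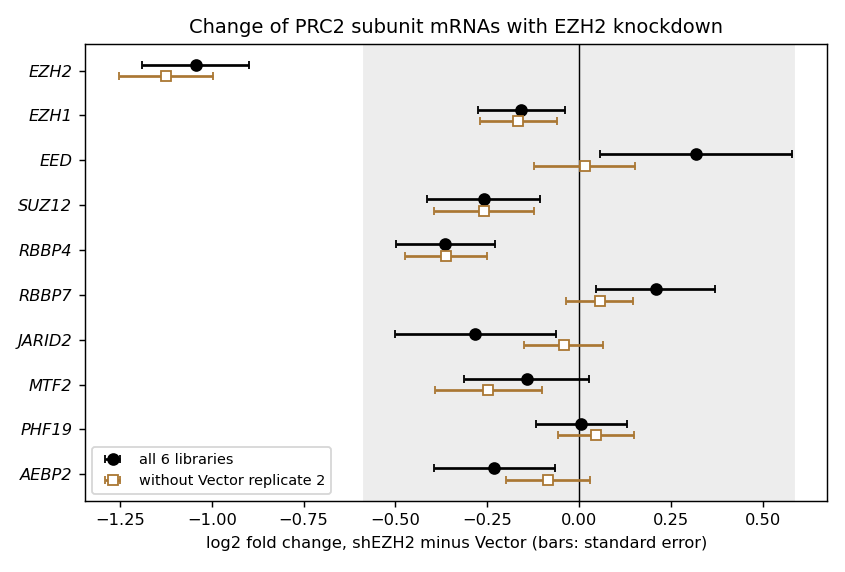
Log2 fold change of each PRC2 subunit gene (shEZH2 minus Vector, horizontal axis) with its standard error, from all 6 libraries (black circles) and without Vector replicate 2 (open squares); the grey band marks changes under 1.5-fold. EZH2 lies at -1.04 and -1.12, and the other 9 genes lie within the band in both fits.

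EZH1, the alternative catalytic subunit, did not pass the threshold when EZH2 was reduced. EZH1 (ENSG00000108799, minus strand of chr17:42700275-42745049) had 935, 891 and 878 normalized counts over Vector replicates 1 to 3, beside 786, 800 and 837 over shEZH2 replicates 1 to 3. All shEZH2 libraries were below all Vector libraries, by a margin of about the spread within a group. EZH1 had a log2 fold change of -0.16 (SE 0.12; adjusted p = 0.448), and the 95% confidence interval ran from 0.740-fold to 1.09-fold. A rise of EZH1 mRNA beyond 1.09-fold thus lay outside the interval. The log2 fold change stayed between -0.18 and -0.11 over all alternatives.

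To set the levels of different genes side by side, normalized counts were divided by the gene length in kilobases. EZH2 made up 44.4%, 43.1% and 49.3% of the summed EZH1 and EZH2 level over Vector replicates 1 to 3, beside 31.8%, 32.3% and 29.4% over shEZH2 replicates 1 to 3. Thus EZH1 mRNA was the more abundant of the pair in every library on this scale, and more so after knockdown. The mean share was 45.6% ± 3.26 (SD, n = 3) in Vector and 31.1% ± 1.55 (SD, n = 3) in shEZH2 cells, without overlap (exact two-sided permutation test, p = 0.1). The summed level of both genes was 237 ± 12.1 normalized counts per kilobase (SD, n = 3) in Vector and 168 ± 2.54 (SD, n = 3) in shEZH2 cells, with values of 224 to 248 and of 165 to 170. The sum was chosen after the values were seen. EZH2, the target of the shRNA, is part of the share and of the sum, so the falls of both mostly restate the knockdown. The lengths are those of the table, and how they were derived is not stated, so the order of genes rests on them.

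**Figure D2:**
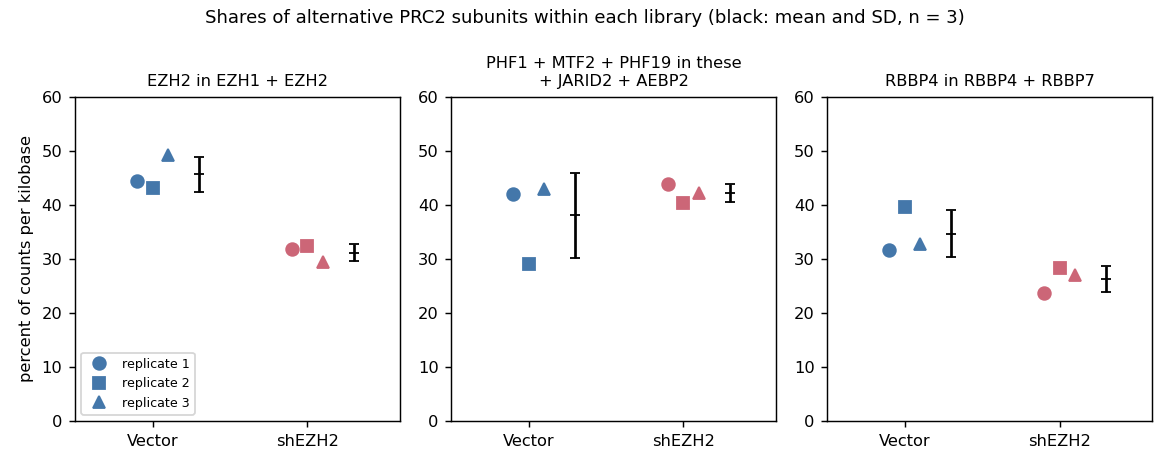
Share of 1 set of subunits in the summed normalized counts per kilobase of alternative subunits, in percent, for each library (symbols mark the replicate) with the mean and SD of each group in black. The EZH2 share falls from 43.1% to 49.3% in Vector libraries to 29.4% to 32.3% in shEZH2 libraries, while the middle panel shows 1 low value, that of Vector replicate 2.

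The other subunits of the core, EED and SUZ12, did not pass the threshold in either direction. EED (ENSG00000074266, plus strand of chr11:86244544-86278813) had 277, 141 and 254 normalized counts over Vector replicates 1 to 3, beside 294, 267 and 245 over shEZH2 replicates 1 to 3. Vector replicate 2 was the lowest by far, and the other 5 libraries overlapped between the groups. With all libraries EED had a log2 fold change of 0.32 (SE 0.26; adjusted p = 0.482), and without Vector replicate 2 it was 0.02 (SE 0.14; adjusted p = 0.949). EED had 121 to 334 reads per library. It was the least covered subunit in each Vector library, whereas EZH2 had fewer reads than EED in each shEZH2 library.

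SUZ12 (ENSG00000178691, plus strand of chr17:31937018-32001045) had 725, 754 and 778 normalized counts over Vector replicates 1 to 3, beside 584, 754 and 562 over shEZH2 replicates 1 to 3. Here the odd library was shEZH2 replicate 2, which sat among the Vector libraries while the other shEZH2 libraries were below them all. SUZ12 had a log2 fold change of -0.26 (SE 0.15; adjusted p = 0.342), and it was -0.39 without shEZH2 replicate 2. SUZ12P1, a transcribed pseudogene copy of SUZ12 on the same chromosome that could take up or lend reads, had means of 146 and 129 normalized counts in Vector and shEZH2 cells.

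The histone-binding pair RBBP4 and RBBP7 had log2 fold changes of opposite sign, and neither passed the threshold. RBBP4 (ENSG00000162521, plus strand of chr1:32651142-32686211) had 1797, 1864 and 1915 normalized counts over Vector replicates 1 to 3, beside 1273, 1550 and 1525 over shEZH2 replicates 1 to 3. The 3 Vector libraries were tight and all lay above the shEZH2 libraries. RBBP4 had a log2 fold change of -0.36 (SE 0.13; unadjusted p = 0.0284 and adjusted p = 0.166 by limma), a change smaller than 1.5-fold, and the 95% confidence interval was 0.625-fold to 0.966-fold. Without Vector replicate 2 the log2 fold change was also -0.36, with an adjusted p of 0.0390, the lowest of the alternatives, which ran up to 0.379. With the trend on gene length removed it was -0.23 with an unadjusted p of 0.102, and the unadjusted p was also over 0.05 with TMM scaling (0.0506) and with any library left out other than Vector replicate 2 or shEZH2 replicate 2 (up to 0.0956).

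RBBP7 (ENSG00000102054, minus strand of chrX:16839283-16870414) had 3026, 2223 and 3078 normalized counts over Vector replicates 1 to 3, beside 3221, 3080 and 3219 over shEZH2 replicates 1 to 3. The groups did not overlap, but the lowest shEZH2 and the highest Vector library were 3080 and 3078. RBBP7 had a log2 fold change of 0.21 (SE 0.16; adjusted p = 0.458) and 0.06 (SE 0.09; adjusted p = 0.721) without Vector replicate 2. The end of RBBP7 overlaps that of TXLNG on the other strand, so reads there could belong to either gene unless the libraries kept the strand, which is not stated. TXLNG was lower in all shEZH2 libraries, at 621 to 748 against 1005 to 1059 normalized counts. Its log2 fold change was -0.57 (SE 0.13; adjusted p = 0.0577), just short of 1.5-fold, and -0.58 (adjusted p = 0.00375) without Vector replicate 2.

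A share chosen after the values were seen was that of RBBP4 in the summed RBBP4 and RBBP7 level per kilobase, at 31.7%, 39.6% and 32.7% over Vector replicates 1 to 3, beside 23.6%, 28.2% and 26.99% over shEZH2 replicates 1 to 3. It was lower in all shEZH2 libraries, with a difference of means of -8.38 percentage points and of -5.92 without Vector replicate 2 (exact two-sided permutation test with all libraries, p = 0.1). RBBP4P1, a processed pseudogene copy of RBBP4, had 19.8 to 38.2 normalized counts in all libraries, and RBBP4P2 and RBBP4P3 had at most 6.99.

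Of the accessory subunits of PRC2.2, JARID2 was, after EED, the subunit in which Vector replicate 2 lay furthest from the other Vector libraries. JARID2, which helps bring PRC2 to its targets and is itself a methylated substrate (ENSG00000008083, plus strand of chr6:15246296-15522040), had 2160, 3554 and 2149 normalized counts over Vector replicates 1 to 3, beside 1854, 2194 and 2256 over shEZH2 replicates 1 to 3. Apart from Vector replicate 2, the libraries of both groups overlapped. JARID2 had a log2 fold change of -0.28 (SE 0.22; adjusted p = 0.458), and -0.04 (SE 0.11; adjusted p = 0.832) without Vector replicate 2.

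AEBP2, a zinc finger protein that steadies the complex on nucleosomes (ENSG00000139154, plus strand of chr12:19404045-19720801), showed the same arrangement on a smaller scale. It had 722, 954 and 687 normalized counts over Vector replicates 1 to 3, beside 612, 719 and 665 over shEZH2 replicates 1 to 3. AEBP2 had a log2 fold change of -0.23 (SE 0.17; adjusted p = 0.425), and -0.09 (SE 0.11) without Vector replicate 2.

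The Polycomb-like subunits of PRC2.1 overlapped between the groups. PHF19 (ENSG00000119403, minus strand of chr9:120855652-120894896) had 1047, 1153 and 1077 normalized counts over Vector replicates 1 to 3, beside 1061, 1061 and 1170 over shEZH2 replicates 1 to 3. Its log2 fold change was 0.01 (SE 0.12; adjusted p = 0.981), with a 95% confidence interval of 0.822-fold to 1.23-fold, and its sign changed with the tool and the libraries used. MTF2 (ENSG00000143033, plus strand of chr1:93079235-93139081) had 343, 261 and 306 normalized counts over Vector replicates 1 to 3, beside 236, 309 and 279 over shEZH2 replicates 1 to 3, with a log2 fold change of -0.14 (SE 0.17; adjusted p = 0.628) that ran from -0.25 to -0.04 with single libraries left out. PHF1, the third Polycomb-like protein, had a log2 fold change of 0.05 (SE 0.20), or -0.16 without Vector replicate 2, and means of 418 and 424 normalized counts in Vector and shEZH2 cells.

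The balance of the 2 forms of the complex was read as the share of PHF1, MTF2 and PHF19 in the summed level per kilobase of these genes with JARID2 and AEBP2. It was 42.1%, 29.0% and 43.0% over Vector replicates 1 to 3, beside 43.8%, 40.4% and 42.2% over shEZH2 replicates 1 to 3. Except for Vector replicate 2, which was low, the libraries of both groups covered the same range. The means were 38.01% ± 7.81 and 42.1% ± 1.69 (SD, n = 3 each; exact two-sided permutation test, p = 0.6), a difference of 4.12 percentage points that became -0.376 without Vector replicate 2.

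Of the other accessory genes fixed beside the members (PHF1, EPOP, LCOR, LCORL and EZHIP), 4 were tested and 0 passed the study's threshold in limma, DESeq2 or edgeR. Of all genes tested in limma, 7.55% were higher and 7.07% lower past it. LCORL alone had an unadjusted p under 0.05, and it was lower, as were 11.3% of all genes at that p in limma. EZHIP, an inhibitor of PRC2, is not among the genes analysed here. EPOP, which links PRC2.1 to elongin, had a log2 fold change of -0.13 (SE 0.15), or -0.20 without Vector replicate 2. LCOR and LCORL encode the PALI proteins of PRC2.1. LCOR had -0.14 (SE 0.32), or 0.21 without Vector replicate 2, with 1085 normalized counts in Vector replicate 2 against 454 to 710 in the other 5 libraries. LCORL had 388, 531 and 423 normalized counts over Vector replicates 1 to 3, beside 281, 370 and 308 over shEZH2 replicates 1 to 3, and its log2 fold change of -0.48 (SE 0.18; adjusted p = 0.167) was -0.35 without Vector replicate 2.

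Across the complex, the levels per kilobase spanned more than the change of any subunit. In Vector cells the order was JARID2 (436 ± 134 normalized counts per kilobase, SD, n = 3), RBBP7 (375 ± 64.9), RBBP4 (196 ± 6.28), PHF19 (162 ± 8.10), EZH1 (129 ± 4.29), AEBP2 (120 ± 22.0), SUZ12 (115 ± 4.07), EZH2 (108 ± 12.8), MTF2 (51.3 ± 6.97) and EED (31.9 ± 10.4). The ranges of JARID2 and RBBP7 overlapped, as did those of each neighbouring pair from EZH1 to EZH2, while the other neighbours did not. The first place of JARID2 rested on Vector replicate 2, since RBBP7 was above it in Vector replicates 1 and 3 (409 and 416 against 359 and 357) and in every shEZH2 library. Without Vector replicate 2 the means in Vector cells were 413 for RBBP7 and 358 for JARID2, and AEBP2 (107) came after SUZ12 (115) and EZH2 (114). In shEZH2 cells EZH2 stood at 52.3 ± 2.37, but its libraries no longer overlapped those of SUZ12 (96.7 ± 16.0) and now overlapped those of MTF2 (46.5 ± 6.20). Against all genes tested, the EZH2 level per kilobase moved from percentile 61.2 to 43.2, and EED, the scarcest subunit on this scale, stood at 32.5 and 36.2. RBBP7 led in shEZH2 cells at 429 ± 10.96, followed by JARID2 at 349 ± 36.0. This order rests on the gene lengths given. Before division by length, EZH2 was below EED in shEZH2 cells, at means of 236 and 269 normalized counts.

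**Figure D3:**
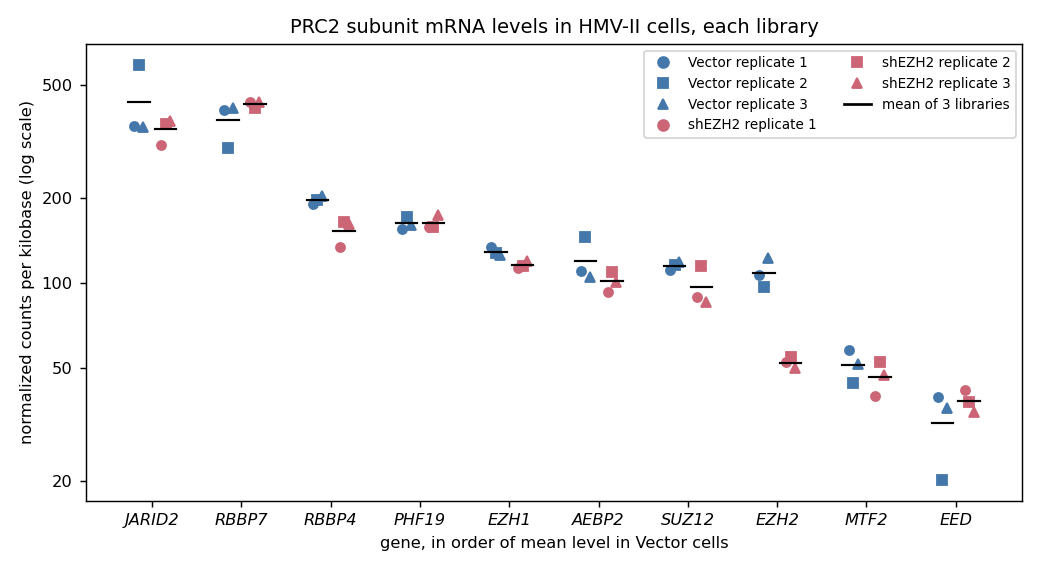
Normalized counts per kilobase (log axis) of the 10 subunit genes in each library, ordered by the mean in Vector cells, with black bars for the mean of 3 libraries. EZH2 is the gene whose shEZH2 libraries (49.8 to 54.6) lie far below its Vector libraries (96.6 to 122). Vector replicate 2 stands off furthest from replicates 1 and 3 for JARID2, RBBP7, AEBP2 and EED, and by less for MTF2 and EZH2.

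A sequence feature was looked for in the promoters of the subunits, since E2F proteins, the transcription factors that switch on genes of S phase, are known to activate EZH2. Promoter windows from RefSeq on GRCh38.p14, 250 bases before and 50 bases after each annotated start, held 15 windows for the 10 genes. They were searched on both strands for the usual E2F letters TTTCCCGC, TTTCGCGC, TTTGCCGC and TTTGGCGC, and for no other motif. A match was found for 6 of the 10 subunits (EZH2, EZH1, SUZ12, MTF2, PHF19 and AEBP2), against 6.68% of 10428 tested genes with a window and 3.99% of all 27305 genes. By windows this was 6 of 15, against 4.86% of those of tested genes. The count depends on the letters allowed. The search began with TTTCGCGC and TTTGGCGC alone, which gave 1 of 10 subunits (EZH2) against 2.44% of tested genes, and the other forms were added after that result was seen. The 30 bases around each match, on the strand of the gene with the motif or its reverse complement in capitals, show which form each gene has: TTTCCCGC in SUZ12 and, as its reverse complement, in MTF2 and PHF19, TTTGCCGC in AEBP2 and, reversed and complemented, in EZH1, and TTTGGCGC in EZH2.
EZH2: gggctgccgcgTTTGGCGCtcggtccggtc
MTF2: accggcagtccGCGGGAAAccaaaatggcg
PHF19: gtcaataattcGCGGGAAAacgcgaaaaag
EZH1: gcggggttttgGCGGCAAAtgacagtagtg
SUZ12: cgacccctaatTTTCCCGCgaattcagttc
AEBP2: caaggcgacgtTTTGCCGCgatccccctgc

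These lie at chr7:148884272-148884301 on the minus strand for EZH2, at chr1:93079277-93079306 on the plus strand for MTF2, at chr9:120877322-120877351 on the minus strand for PHF19, at chr17:42745137-42745166 on the minus strand for EZH1, at chr17:31936807-31936836 on the plus strand for SUZ12 and at chr12:19440438-19440467 on the plus strand for AEBP2. In EZH2 the match covers bases 2 to 9 of the RefSeq transcript and in MTF2 bases 6 to 13, whereas the others lie -188 to -107 bases from the start. A match is a description of letters and not a binding site, and binding was not measured here.

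Of the 13 genes of the E2F and RB list, 4 rose past the study's threshold and 0 fell in limma, DESeq2 and edgeR alike. In limma 7.55% and 7.07% of all genes tested did so. At an unadjusted p under 0.05, 0 of the list were lower, against 11.3% of all genes in limma. E2F1, an activator E2F, rose from 810, 771 and 777 normalized counts over Vector replicates 1 to 3 to 1813, 1501 and 1706 over the shEZH2 replicates, a log2 fold change of 1.09 (SE 0.13; adjusted p = 0.00984). E2F8, a repressor E2F of late S phase, had a log2 difference of 1.03 (SE 0.19; adjusted p = 0.0289). TFDP1, the usual dimer partner of E2F proteins, had one of 0.84 (SE 0.19; adjusted p = 0.0528) and of 0.65 (adjusted p = 0.000849) without Vector replicate 2. The fourth, E2F2, had one of 0.79 (SE 0.20; adjusted p = 0.0761) and is named beyond the rule of 3 genes a list. The retinoblastoma genes RB1, RBL1 and RBL2 had log2 fold changes of -0.12, 0.05 and -0.12, or -0.05, 0.25 and -0.01 without Vector replicate 2. The median over the list was 0.08, so the rises concerned a minority of its genes. No subunit, with or without a motif match, was higher past the threshold. Whether E2F proteins act on the subunits was not tested.

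RBBP4, RBBP7 or both also serve the CAF-1, NuRD, SIN3 and MuvB complexes, whose other subunits were counted in the same way. Of all genes tested in limma, 7.55% were higher and 7.07% lower past the study's threshold. At an unadjusted p under 0.05, 11.3% were lower, and the share higher was not counted. The lists hold 2 to 11 genes each, so their counts are small. CAF-1, which deposits histones behind the replication fork, had 1 of 2 genes higher, CHAF1B, with 196, 165 and 164 normalized counts over Vector replicates 1 to 3, beside 275, 298 and 312 over shEZH2 replicates 1 to 3. Its log2 fold change was 0.75 (SE 0.15; adjusted p = 0.0367). In NuRD, a deacetylase and remodeler, 0 of 11 genes passed in limma, though 2 were higher and 1 lower at an unadjusted p under 0.05. DESeq2 and edgeR called 2 and 1 lower past the threshold, where they called 1321 and 1191 lower of all 15251 genes. In MuvB, which controls cell cycle genes, 0 of 4 passed with any of the 3 tools, also at an unadjusted p under 0.05 without the fold. In the SIN3 deacetylase complex 2 of 9 genes were lower, namely ARID4B and ARID4A. ARID4B had a log2 fold change of -0.94 (SE 0.19; adjusted p = 0.0380), and -0.76 (adjusted p = 0.000944) without Vector replicate 2. ARID4A had one of -0.61 (SE 0.17; adjusted p = 0.0846). Without Vector replicate 2 that was -0.57 (adjusted p = 0.0294), under 1.5-fold. The median log2 fold changes of the lists were 0.56 for CAF-1, 0.01 for NuRD, 0.07 for SIN3 and -0.05 for MuvB.

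Genes whose pattern was closest to that of EZH2 were found by the root mean square difference of log2 values, centred on each gene's mean over the 6 libraries, among the 11881 genes compared, which had a mean of 50 or more normalized counts. GOLGA7B was the nearest, at 0.09 on the log2 scale, with 1906, 1472 and 1955 normalized counts over Vector replicates 1 to 3, beside 820, 795 and 749 over shEZH2 replicates 1 to 3. HEY1, a Notch target and repressor, was at 0.10 with 2345 to 2878 and 1163 to 1376, and DMRTA1 was at 0.10 with 162 to 207 and 88.6 to 102. With 2 groups of 3 libraries, a gene with a fall of like size and an evenly lower Vector replicate 2 is near by construction.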

How the data were processed

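Poly(A) RNA of 6 HMV-II libraries was sequenced on an Illumina NovaSeq. FeatureCounts v1.5.0-p3 (read counting) and DESeq2 1.20.0 (comparison) are the tools that the authors give; the aligner and the strandedness are not given in the sources used here. The deposited table holds signal values for 30015 genes, which are the reads on each gene divided by 1 size factor per library. All values (100%) of a library divided by its value of 1 read gave whole numbers (within 0.01), so the reads could be recovered. The authors' own log2 fold changes, p-values and adjusted p-values, also deposited, were not used. Of the per-library columns, 6 were used and 0 unused. The labels name hg19, but the gene coordinates of the table are GRCh38, since 47.9% of 20847 genes share a start or end with RefSeq on GRCh38 and 0.838% of 29478 with GENCODE on GRCh37.

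Groups were compared with limma 3.58.1 (lmFit, then eBayes with trend) after log2(normalized count + 1), and a gene was tested if its mean reached 10 normalized counts (15251 genes). The study's threshold asked for an unadjusted p under 0.05 and a change over 0.585 on the log2 scale (1.5-fold). Benjamini-Hochberg adjustment was made over all genes tested. Single values were compared by exact two-sided permutation of the libraries (20 arrangements), whose smallest p is 0.1. Levels were divided by the gene length in the table. The genes named are all 10 members, the other accessory subunits, up to 3 genes past the threshold in each further list, the 3 genes nearest to EZH2, and copies or neighbours that could share reads. The members, lists and tests were chosen with earlier results of these data known. The RBBP4 share, the sum of EZH1 and EZH2 and the promoter motif came later still, with the members' values in view, and the motif set was widened from 2 to 4 forms once the first search had been seen.

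Alternatives tried were DESeq2 1.42.0 and edgeR 4.0.16 (TMM or RLE factors) on the recovered reads, TMM scaling in limma, pseudocounts of 0.1 and 5, all genes, only genes with a mean of 50 or more, a replicate block, an adjusted p, removal of a loess trend on gene length within each library, and each library left out in turn. The models were tested on simulated data. R 4.3.3 and Python 3.11.15 were used.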

Additional observations from a re-analysis of the deposited data

How the results depend on the processing

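EZH2 was lower and past the study's threshold under each of the 16 alternatives, with a log2 fold change from -1.13 to -0.96, and from -1.12 to -0.96 with each library left out in turn. Of the other 9 subunits, 8 kept their direction and stayed short of the threshold under all 16. PHF19, whose log2 fold change was 0.01, changed sign in 5, at -0.0172 with DESeq2 and -0.0174 with edgeR's RLE factors, and from -0.0406 to 0.0456 with each library left out. Vector replicate 2 moved the values of EED, RBBP7, JARID2 and AEBP2 towards 0 when left out, as given above, and the cause of its departure was not tested. The background counts of 1151 higher and 1078 lower genes became 345 and 279 with an adjusted p, which is stricter by construction, and ran from 849 to 1525 and from 774 to 1318 with each library left out. DESeq2 and edgeR on the recovered reads called 1045 and 1086 genes higher and 1321 and 1191 lower. With a replicate block the EZH2 log2 fold change was -1.04 (adjusted p = 0.0377 in limma), and the block changed the call of no subunit. Same-numbered libraries correlated in their deviations at 0.275, 0.219 and -0.111, and libraries of unlike number at -0.31 to 0.25. These ranges overlap, so the correlations do not decide whether the numbers mark pairs. The main fit did not take them as pairs. The subunits had 121 to 3857 reads per library, a counting error of 9.09% to 1.61% that covers counting only.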

Other observations

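PRC1, the complex that reads the mark of PRC2 and adds ubiquitin to histone H2A, had a median log2 fold change of -0.03 over 21 genes. In limma 0 were higher and 2 lower past the study's threshold, against 7.55% and 7.07% of all genes tested. DESeq2 and edgeR each called 0 higher and 3 lower, where they called 1045 and 1086 higher and 1321 and 1191 lower of all 15251 genes. At an unadjusted p under 0.05, 3 were lower in limma, against 11.3% of all genes, and 4 in DESeq2 and in edgeR. At that p 0 were higher with any of the 3 tools, and the share of all genes that was higher was not counted. PHC3, a polyhomeotic protein, had 2079, 4197 and 2224 normalized counts over Vector replicates 1 to 3, beside 1066, 1550 and 1410 over shEZH2 replicates 1 to 3. The groups did not overlap, but the size rested in part on Vector replicate 2. PHC3 had a log2 fold change of -1.02 (SE 0.29; adjusted p = 0.0929), and -0.70 (SE 0.14; adjusted p = 0.00405) without that library. PCGF5, a ring finger protein of variant PRC1, had a log2 fold change of -0.71 (SE 0.20; adjusted p = 0.0924). Without Vector replicate 2 it was -0.53 (SE 0.14; adjusted p = 0.0165), under 1.5-fold. In the fit without that library 18.9% of all genes had an adjusted p under 0.05, against 4.12% with all libraries. The H3K27 demethylases KDM6A and KDM6B, which remove the mark, did not pass, with log2 fold changes of -0.13 (SE 0.19) and -0.40 (SE 0.22) that were 0.01 and -0.15 without Vector replicate 2.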
